A study of Mus musculus with 11 samples.

Results

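Peroxisome biogenesis factors and peroxisomal enzymes were followed in whole kidneys of Alport mice given an inhibitor of microRNA-21. Genes were chosen by name: 33 were listed, and the 28 with a row among the 24914 rows of the deposited count files are described here. Pex16, Acox3, Amacr, Crat and Gnpat were not analysed here. All 28 passed the filter on low counts that left 14380 loci for testing. Of the 28, 20 were counted alone and 8 shared every read with a second name, so that they form a joint locus, written with a slash (Acaa1b/Dlec1), whose reads belong to either gene.

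The 11 libraries came from kidneys of 129X1/SvJ mice aged 5.5 weeks. Col4a3 encodes a chain of the type IV collagen network of the glomerular basement membrane, and its loss is a model of Alport syndrome. Controls were heterozygous Col4a3+/- mice given PBS (HET PBS, n = 3), which carry the mutant allele too, so that no wild type kidney enters. Homozygous Col4a3-/- mice received PBS (KO PBS, n = 4) or antimiR-21, an antisense oligonucleotide against microRNA-21 (KO antimiR-21, n = 4). No group here received a control oligonucleotide, and the labels state no dose, route, dosing interval or sex. The labels number the libraries of a group without saying that each came from its own mouse. A p-value therefore sets a difference against the spread between these libraries, which may not be that between mice.

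Peroxisomes are small organelles that shorten very long, branched and dicarboxylic fatty acids, begin the synthesis of ether lipids, and oxidise D-amino acids and 2-hydroxy acids. Their oxidases make hydrogen peroxide, which catalase degrades. Matrix enzymes are made in the cytosol and carried in by the receptors Pex5 and Pex7 through a docking and recycling machine of other peroxins, and membrane proteins are placed by Pex3, Pex16 and Pex19. In the kidney peroxisomes are most abundant in the proximal tubule, and above all in its straight part, the S3 segment.

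Levels are in CPM, the counts of a locus per 1 M counts of its library after TMM scaling, which corrects library sizes for composition. The deposited estimated counts totalled 22.4 to 49.7 M per library, and 17.9 to 39.7 M with the reads of each joint locus entered once. A call means a Benjamini-Hochberg adjusted p under 0.05 over all 14380 loci in the edgeR quasi-likelihood test, two-sided, in which the 3 groups share 1 estimate of the spread. The libraries stand apart by Y-linked reads: Ddx3y, a gene of the Y chromosome, stood at 89.7 to 109.5 CPM in 5 libraries (HET PBS 2 and 3, KO PBS 3 and 4, KO antimiR-21 4) and at 0.172 CPM or less in the other 6. Groups hold unequal shares of such libraries (2 of 3, 2 of 4 and 1 of 4), so each comparison of groups was also fitted with Y-linked status as a term. The members' summed level ran from 7125 to 10165 CPM, or 0.713% to 1.02% of a library. Of 13 proximal tubule markers 10 were measured, and all 10 were present in every library, with a summed level of 14438 to 20471 CPM.

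Some members carry the short match through which microRNA-21 binds messengers, and these are shown because the inhibitor acts on that microRNA. The mature microRNA, from RefSeq on GRCm38.p6 (chr11:86584120-86584141, minus strand), has its seed, bases 2 to 8, in capitals. The member sequences are 30 bases of the 3′ untranslated region in GENCODE vM21 transcripts on GRCm38 with the match to the seed, ATAAGCT, in capitals, read 5′ to 3′ on the strand of the gene.
mmu-miR-21a-5p: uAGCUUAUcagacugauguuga
Agps, first match (chr2:75928804-75928833, plus strand): aaaagctcaataaaatATAAGCTtccattg
Agps, other match (chr2:75929806-75929835, plus strand): tacagctgaacatatcATAAGCTaagttgt
Pex2 (chr3:5560449-5560478, minus strand): gagataaagaaacattATAAGCTcacatca
Pex7 (chr10:19857489-19857518, minus strand): cgcagtacacagctgaATAAGCTgacttga
Pex10 (chr4:155071852-155071881, plus strand): accgttcttttgtcacATAAGCTactacag
Pex13 (chr11:23647090-23647119, minus strand): ttcaattaaataattcATAAGCTacagtaa

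These 5 of 28 members (17.9%) had a match on the sense strand, against 7.18% of 21020 genes with an annotated 3′ untranslated region. The region is 5307 bases long in Agps and 7026 in Pex7, and 642 to 2813 bases in Pex2, Pex10 and Pex13. A match is a run of letters and not a measured site. The levels of these 5 members by treatment are given with that comparison.

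Peroxisomal enzymes are known targets of the fatty acid sensor PPAR-alpha, which binds a direct repeat of AGGTCA with 1 base between the copies. That pattern, AGGTCA, any 1 base and AGGTCA again, with up to 2 mismatches in all, was searched on both strands of RefSeq promoters (GRCm38.p6, 250 bases before to 50 after each start). It was found in 2 of the 29 promoters of the 23 members with an entry, and in 3.86% of all 32851 promoters. Both member matches have 2 mismatches, the most allowed, and that of Acox2 begins 9 bases after the start. Neither is a measured site. The stretches are shown on the minus strand, that of both genes, with the match in capitals.
Cat (chr2:103485336-103485365): actctcagAGGTCAGAGAACAccagcaggg
Acox2 (chr14:8258809-8258838): gctgtcccAGGACAGAGGTGAgtcaagagt

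Per kilobase of exon several matrix enzymes led and the import factors were low. The length joins the exons of all annotated transcripts of a gene and can exceed that of a single one. In Ddo it was 8.925 kilobases, against 3000 bases in the longest coding transcript. The order by transcript length was not tested. Over the 20 members counted alone, the CPM per kilobase of exon averaged over all 11 libraries was 622 for Hao2, a 2-hydroxy acid oxidase, 429.7 for Cat, which encodes catalase, and 356 for Phyh, phytanoyl-CoA hydroxylase, the first enzyme of alpha-oxidation. Ehhadh, the bifunctional enzyme of inducible beta-oxidation, followed at 254. Scp2, Hsd17b4 and Crot stood at 115, 113 and 107 CPM per kilobase. Neighbours in this order overlapped between libraries except at 3 steps, from Ehhadh (lowest library 179 CPM per kilobase) to Scp2 (highest 142), from Pex11a (17.6) to Pex14 (11.8) and from Pex26 (5.44) to Abcd2 (0.460). Hao2 alone spanned 313 to 867 CPM per kilobase. Peroxins counted alone ran from 5.89 for Pex26, which anchors the export motor, to 37.7 for Pex19, the chaperone of membrane proteins. Not all enzymes were high: the oxidase Ddo averaged 6.33 CPM per kilobase, within the range of the peroxins, and Agps 38.8. Abcd2, a transporter of very long chain acyl-CoA, was lowest at 0.225 CPM per kilobase, with 10 to 50 counts in a library.

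**Figure D1:**
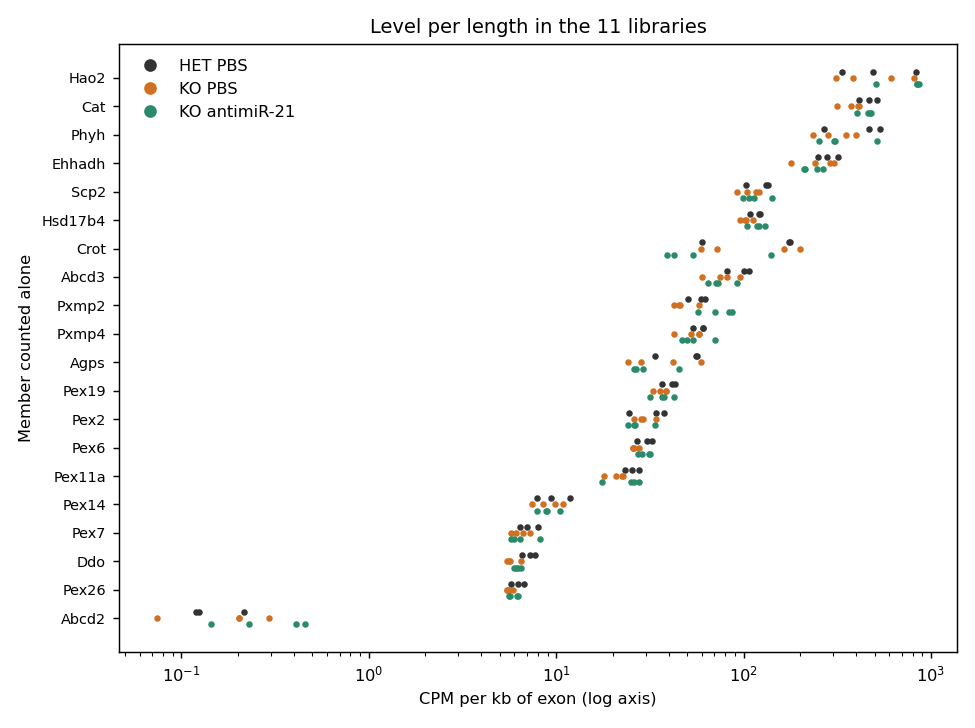
Level of the 20 members counted alone, in CPM per kilobase of exon on a log axis, with 1 point per library coloured by group. Hao2, Cat and Phyh lie at the top and Abcd2 at the bottom, below all other members shown in every library.

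The effect of losing Col4a3 on peroxisomal messengers was read from KO PBS against HET PBS. Most stood somewhat lower in mean: 26 of 28 members had a negative log2 difference, as did 53.5% of all loci, and the members' median was -0.16 against -0.015 over all loci. The differences were small, at most 0.42 below 0 on the log2 scale (Phyh), and none of the 28 was called, where 0% of loci were called. At an unadjusted p under 0.05 in edgeR, 3 members were lower and 0 higher, against 2.73% and 4.21% of all loci, and DESeq2 called 0 members too. In 2 members, Ddo and Pex11a, all KO PBS libraries lay below all HET PBS libraries, which 3.21% of loci did. In whole kidney, fewer cells of a type and less RNA per cell cannot be told apart.

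Ddo encodes D-aspartate oxidase (chr10:40630011-40681847, plus strand). It stood at 58.5, 69.0 and 64.6 CPM in HET PBS, 50.4, 57.8, 49.8 and 49.0 CPM in KO PBS and 56.1, 58.1, 53.4 and 54.6 CPM in KO antimiR-21. Every KO PBS value was below every HET PBS value, the nearest being KO PBS 2 and HET PBS 1. The log2 difference was -0.31 (SE 0.0828, edgeR adjusted p = 0.456). Cat (chr2:103453849-103485160, minus strand) stood at 1079.7, 1347 and 1222 CPM in HET PBS, 826, 1082, 1067 and 982 CPM in KO PBS and 1241, 1246, 1049 and 1209 CPM in KO antimiR-21. KO PBS 1 was the lowest of the 11, and KO PBS 2 reached the lowest HET PBS library. Its mean was 989 ± 117 CPM (SD, n = 4) against 1216 ± 134 CPM (SD, n = 3), a log2 difference of -0.30 (SE 0.120, edgeR adjusted p = 0.666).

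Pex6 is an ATPase of the export motor that returns Pex5 to the cytosol. It stood at 117, 123 and 103 CPM in HET PBS, 98.2, 105, 97.9 and 99.0 CPM in KO PBS and 121, 119, 109 and 104 CPM in KO antimiR-21. The HET PBS and KO PBS ranges overlapped through the HET PBS 3 and KO PBS 2 libraries, and the log2 difference was -0.19 (SE 0.0806, edgeR adjusted p = 0.683). Pex11a, which elongates peroxisomes before division, stood at 80.6, 73.8 and 87.9 CPM in HET PBS, 57.6, 71.6, 66.6 and 72.3 CPM in KO PBS and 82.8, 88.4, 56.1 and 80.0 CPM in KO antimiR-21. KO PBS lay below HET PBS without overlap, while the KO antimiR-21 libraries covered both ranges. Its log2 difference in KO PBS was -0.27 (SE 0.140, edgeR adjusted p = 0.766).

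By role, all 8 members of the import machinery, all 3 of membrane assembly and division and all 4 oxidases and catalase were below HET PBS in mean, with median log2 differences of -0.14, -0.19 and -0.23. Of the 6 members of beta-oxidation 5 were below it (median -0.17) and of the 4 membrane channels and transporters 3 (median -0.20). The exceptions were Acox2/Kctd6 at 0.12 (SE 0.257) and Abcd2 at 0.34 (SE 0.482). With Y-linked status as a term 25 of 28 members were below 0, as were 52.9% of loci. In that fit 0 members were called, where 0.0209% of loci were, and at an unadjusted p under 0.05 edgeR took 6 lower and 0 higher, against 4.55% and 5.23% of loci. Ddo then stood at -0.31 (SE 0.0834, edgeR adjusted p = 0.237). In that fit Crot stood at 0.092 (SE 0.121), above 0 where it had been -0.14 (SE 0.591).

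Markers of the proximal tubule, which holds most peroxisomes, stood lower in mean as well. All 10 proximal tubule markers measured had a negative difference (median log2 -0.22), and their summed level was 14438 to 17249 CPM in KO PBS against 17596 to 20471 in HET PBS, without overlap. Tubular injury markers (3 of 3 measured) summed to 83.4 to 211 CPM against 24.6 to 44.0, and fibroblast markers (4 of 4) to 463 to 929 against 269 to 404. Markers of liver (4 of 4, 100.4 to 189 against 121 to 188 CPM) and fat (3 of 3, 42.6 to 70.8 against 50.1 to 63.6 CPM) overlapped between the groups. Adrenal markers (3 of 3) summed to 60.1 to 64.7 against 59.7 to 63.3 CPM and overlapped too. Nearly all of that sum was the joint locus Ash2l/Star, whose reads belong to either gene. Cyp11a1 stood at 0.242 CPM or less in these 2 groups, and Cyp11b1 was at 0. The part of these cell types in the members' differences was not tested.

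The inhibitor was tested by comparing KO antimiR-21 with KO PBS, which shares the KO PBS libraries with the comparison above. Pxmp2, a channel-forming protein of the peroxisomal membrane, and the 3-ketoacyl-CoA thiolase locus Acaa1b/Dlec1 stood higher in mean in treated kidneys, and neither was called by edgeR. In all, 20 of 28 members had a positive difference, as did 50.9% of loci, with a median of 0.084 against 0.0038. That median rests on single libraries: it was -0.029 without KO antimiR-21 4, 0.027 without KO PBS 1 and 0.128 without KO antimiR-21 3. With Y-linked status as a term 23 of 28 members were above 0, as were 49.8% of loci, and the median was 0.108. Of the members 0 were called, where 0% of loci were. At an unadjusted p under 0.05, 5 members were higher and 0 lower, against 4.76% and 3.46% of loci.

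Pxmp2 (chr5:110274282-110286186, minus strand) stood at 71.2, 74.9 and 60.5 CPM in HET PBS, 54.1, 69.8, 51.0 and 55.2 CPM in KO PBS and 104, 99.95, 68.2 and 84.1 CPM in KO antimiR-21. KO antimiR-21 1 and 2 were the highest of the 11 libraries, and KO antimiR-21 3 lay just below KO PBS 2. The mean was 89.1 ± 16.4 CPM (SD, n = 4) against 57.5 ± 8.39 CPM (SD, n = 4), a log2 difference of 0.63 (SE 0.140, edgeR adjusted p = 0.315). DESeq2 called Pxmp2 (adjusted p = 0.0174), and over the 21 alternatives run its adjusted p ran from 0.0174 to 0.9995. Acaa1b/Dlec1 (chr9:119148023-119157093, minus strand for Acaa1b) stood at 939, 738 and 521 CPM in HET PBS, 558, 720.5, 494 and 499 CPM in KO PBS and 1149, 1251, 768 and 797 CPM in KO antimiR-21. All treated libraries lay above all KO PBS libraries, which 2.34% of loci did, and HET PBS libraries lay across both ranges. The log2 difference was 0.80 (SE 0.214, edgeR adjusted p = 0.334), and DESeq2 called it (adjusted p = 0.0366, with 0.0366 to 0.9995 over the same alternatives).

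Acaa1a/Myd88, the locus of the other thiolase, stood at 232, 263 and 215 CPM in HET PBS, 213, 231, 202 and 199.7 CPM in KO PBS and 272, 287, 212 and 286 CPM in KO antimiR-21. Treated libraries 1, 2 and 4 lay above KO PBS, and treated library 3 lay within its range. It differed by 0.32 on the log2 scale (SE 0.109, edgeR adjusted p = 0.458). The thiolase transcripts are near copies: 34.0% of the 50-base words of Acaa1a and 35.6% of those of Acaa1b occur in the other, so how reads were split between them is uncertain. Myd88, an adaptor of innate immune receptors, and Dlec1 lie on the opposite strand and overlap them by 1736 and 224 bases. Pex6 differed by 0.18 (SE 0.0750, edgeR adjusted p = 0.569) and Cat by 0.26 (SE 0.112, 0.573), with treated means of 113 ± 7.98 CPM (SD, n = 4) and 1186 ± 93.2 CPM (SD, n = 4).

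**Figure D2:**
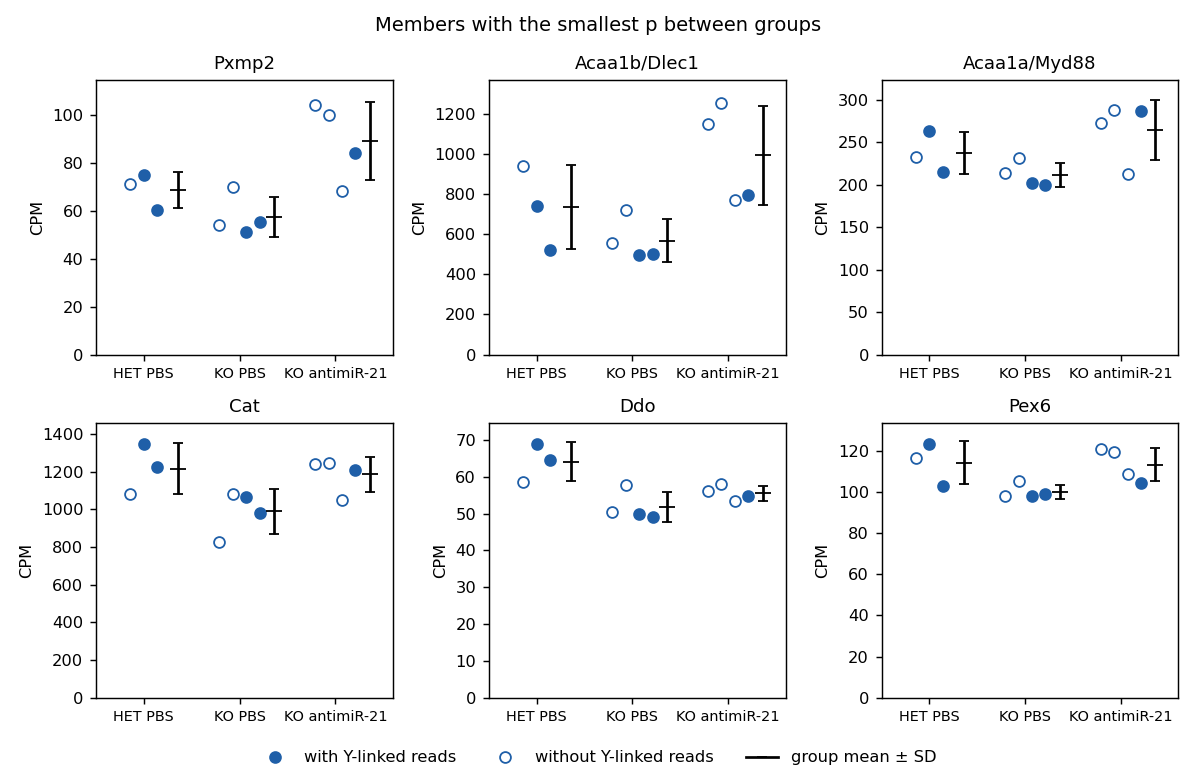
Level in CPM of the 6 loci with the smallest p in the group comparisons, by group, with filled points for libraries with Y-linked reads, open points for those without, and bars for the mean ± SD. Among these 6, Acaa1b/Dlec1 is the 1 locus whose treated libraries all lie above KO PBS, and Ddo the 1 whose HET PBS libraries all lie above both other groups.

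Proximal tubule markers summed to 16921 to 18467 CPM in KO antimiR-21, with 6 of 10 above KO PBS in mean, and tubular injury markers to 56.8 to 113 CPM. Their part in the treatment differences was not tested.

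The 5 members with a match to the microRNA-21 seed lay on both sides of 0 after treatment. Agps, with 2 matches, differed by -0.27 (SE 0.293), Pex10/Rer1 by -0.12 (SE 0.158) and Pex2 by -0.092 (SE 0.143), all below 0. All of these were also called higher with Y-linked reads, which 1 of 4 treated and 2 of 4 KO PBS libraries had. Pex7 differed by 0.034 (SE 0.121) and Pex13/Pus10 by 0.047 (SE 0.0834). No member of the 5 was called, and each difference was under 1 SE from 0 in this fit, which leaves out Y-linked status. With that status as a term no member of the 5 changed sign.

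Circadian clock genes stood at different levels across the libraries, and the labels give no hour of collection. An index of clock phase, the mean log2 CPM of Per3, Tef and Hlf minus that of Arntl, Npas2 and Clock, which peak at opposite times of day, was chosen after the values were seen. It was 1.51 to 1.85 in the 4 KO PBS libraries, 5.18, 4.93, 2.20 and 4.57 in the KO antimiR-21 libraries, and 4.14, 4.93 and 1.80 in the HET PBS libraries. The 5 libraries above 3.5 and the 6 below did not overlap in Pxmp2 (71.2 to 104 against 51.0 to 69.8 CPM) and Acaa1a/Myd88 (232 to 287 against 199.7 to 231 CPM), or 2 of 28 members, where 1.54% of loci were higher and 1.49% lower without overlap. The treated library with the low index, KO antimiR-21 3, had 68.2 CPM of Pxmp2 and the HET PBS library with a low index, HET PBS 3, had 60.5. For Acaa1b/Dlec1 the libraries overlapped by index (738 to 1251 against 494 to 768 CPM). No KO PBS library has a high index, so clock phase and treatment cannot be told apart for these loci. HET PBS 1 and 2 have a high index (4.14 and 4.93), so the index is uneven between KO PBS and HET PBS as well. Its part in the differences between those groups was not tested.

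**Figure D3:**
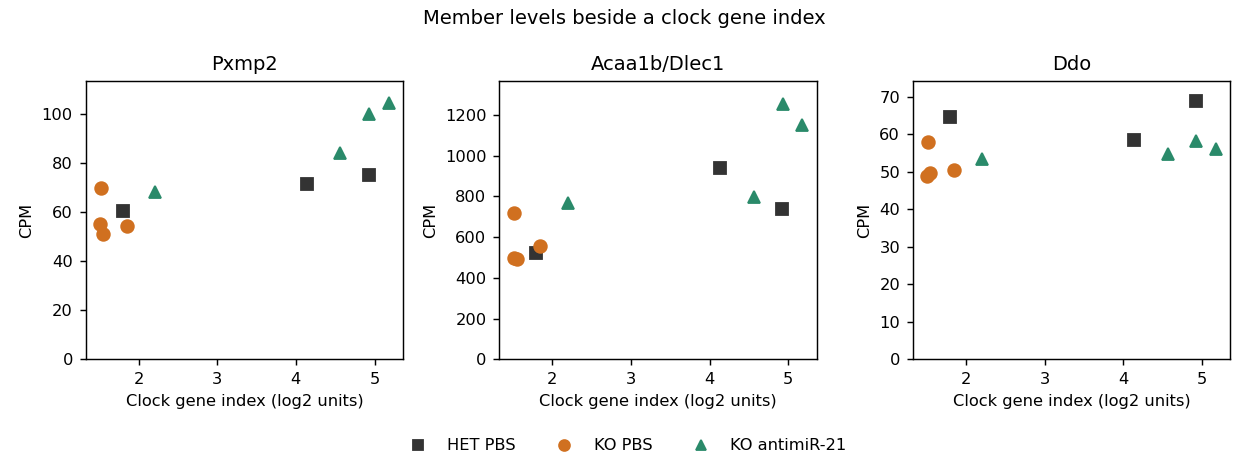
Level in CPM of Pxmp2, Acaa1b/Dlec1 and Ddo against the clock gene index in log2 units, 1 point per library with a shape for each group. The KO PBS libraries all sit at an index of 1.51 to 1.85, and Pxmp2 is higher in the 5 libraries above 3.5 than in the 6 below.

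With Y-linked status as a term the treatment difference of Crot, carnitine octanoyltransferase, became more precise: -0.48 (SE 0.113, edgeR adjusted p = 0.165) against -0.85 (SE 0.553) without it. Among libraries without Y-linked reads Crot stood at 322 and 394 CPM in KO PBS and at 214, 232 and 295 in KO antimiR-21, and among those with them at 1096 and 894 against 762. The treated libraries were thus lower on both sides, and the difference was not called. In that fit 0 members and 0% of loci were called, and at an unadjusted p under 0.05 edgeR took 8 higher and 1 lower, against 6.23% and 4.85% of loci. There Pxmp2 stood at 0.60 (SE 0.135, edgeR adjusted p = 0.160) and Acaa1b/Dlec1 at 0.70 (SE 0.160, 0.160).

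KO antimiR-21 was set against HET PBS to see where treated knockouts differ from the controls. Both groups are also part of the comparisons above. By edgeR and by DESeq2 0 members were called, and edgeR called 0.00695% of loci, 1 in all. At an unadjusted p under 0.05 edgeR took 1 member higher and 1 lower, against 5.04% and 3.01% of loci. A negative difference was found in 21 of 28 members and in 50.5% of loci (members' median -0.090, all loci -0.0024). With Y-linked status as a term it was found in 15 of 28 members and in 52.3% of loci, with a members' median of -0.025. The median was -0.183 without KO antimiR-21 4, -0.042 without KO antimiR-21 3 and -0.053 without HET PBS 2. Ddo stood below HET PBS in all 4 treated libraries, as 2.1% of loci did, with a log2 difference of -0.20 (SE 0.0829, edgeR adjusted p = 0.590). Pxmp2 stood higher by 0.37 (SE 0.152, edgeR adjusted p = 0.590).

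Abcd3, which imports branched and dicarboxylic acyl-CoA (chr3:121758774-121815302, minus strand), stood at 539, 667 and 704 CPM in HET PBS, 394, 496, 628 and 536 CPM in KO PBS and 472, 482, 428 and 605 CPM in KO antimiR-21. The treated libraries lay low except for number 4, and the log2 difference from HET PBS was -0.36 (SE 0.165, edgeR adjusted p = 0.614). With Y-linked status as a term it was -0.20 (SE 0.1002), and 3 of 4 treated libraries lack Y-linked reads. Abcd2 stood at 1.29, 0.741 and 0.711 CPM in HET PBS, 1.74, 1.20, 0.441 and 1.20 CPM in KO PBS and 2.73, 2.43, 1.37 and 0.856 CPM in KO antimiR-21. Its difference of 1.02 (SE 0.480, edgeR adjusted p = 0.614) rests on few counts, and with Y-linked status as a term it was 0.59 (SE 0.375, 0.914).

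**Figure D4:**
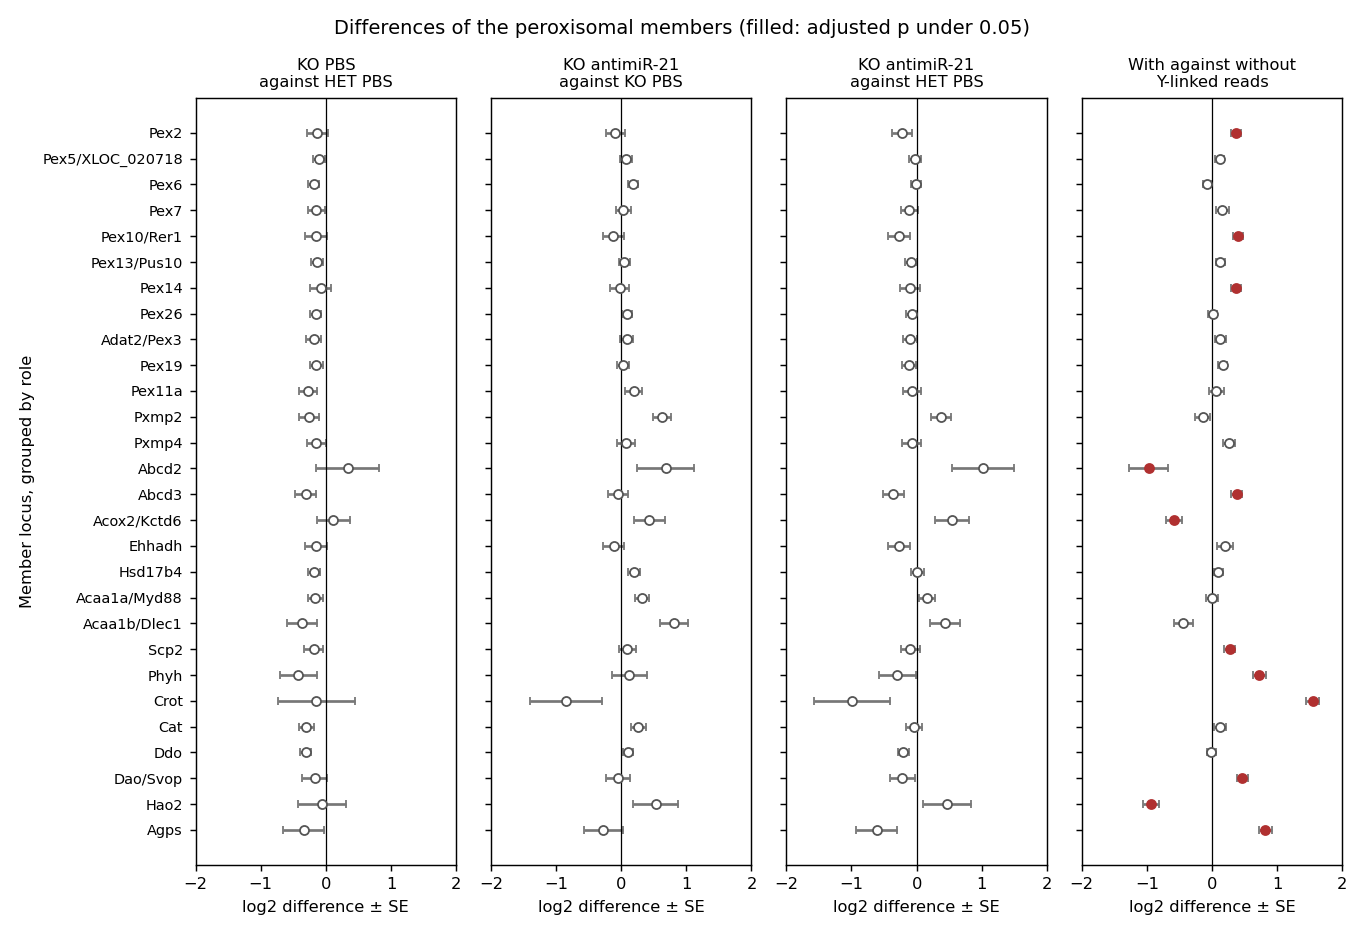
Log2 difference ± SE of each of the 28 members in the 3 group comparisons and between libraries with and without Y-linked reads, grouped by role, with filled points where the edgeR adjusted p is under 0.05. No point is filled in the 3 group panels, and 12 are filled in the panel of Y-linked reads.

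The largest differences among the members ran along Y-linked status, which is not a group of the study. It was tested as a term beside the 3 groups, 5 libraries with Y-linked reads against 6 without. Crot, Agps and Phyh stood higher where Y-linked reads were present, and Hao2 stood lower, in every group. In all, 9 of 28 members were called higher and 3 lower, where 11.1% and 6.85% of loci were. The libraries did not overlap for 7 members that were higher and 1 that was lower, against 8.14% and 4.14% of loci. The values below come in the order HET PBS 2 and 3, KO PBS 3 and 4 and KO antimiR-21 4 with Y-linked reads, and HET PBS 1, KO PBS 1 and 2 and KO antimiR-21 1 to 3 without.

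Crot (chr5:8966033-8997324, minus strand) hands medium-chain products of peroxisomal oxidation to carnitine, so that they can leave for the mitochondria. It stood at 949, 965, 1096, 894 and 762 CPM with Y-linked reads and at 327, 322, 394, 214, 232 and 295 CPM without. The nearest libraries of the sets were KO antimiR-21 4 and KO PBS 2, with no overlap. The log2 difference was 1.54 (SE 0.101, edgeR adjusted p = 1.04e-06), or 2.91-fold.

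Phyh (chr2:4919019-4938730, plus strand) opens the alpha-oxidation of phytanic acid, a branched fatty acid from the diet. It stood at 1009, 884, 751, 667 and 979 CPM with Y-linked reads and at 511, 442, 536, 581, 577 and 476 CPM without. The ranges did not overlap, with KO PBS 4 the lowest of the higher libraries. The log2 difference was 0.73 (SE 0.0967, edgeR adjusted p = 0.000279).

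Agps (chr2:75832177-75931350, plus strand) forms the ether bond of plasmalogens and other ether lipids. It stood at 529, 527, 557, 395 and 429 CPM with Y-linked reads and at 319, 229, 266, 274, 251 and 246 CPM without. Again no library crossed over, and the log2 difference was 0.82 (SE 0.0949, edgeR adjusted p = 9.68e-05). Phyh and Agps are both carried into the peroxisome by Pex7, which itself differed by 0.16 (SE 0.0962, edgeR adjusted p = 0.265) and was not called.

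Oxidases went both ways. Hao2 (chr3:98874521-98893239, minus strand) stood at 689.8, 1004, 641, 789 and 1040.0 CPM with Y-linked reads and at 1708, 1250.1, 1669.7, 1776, 1734 and 1724 CPM without. It is the 1 member whose libraries with Y-linked reads all lay below the others, at 0.523 times their level (log2 difference -0.94, SE 0.120, edgeR adjusted p = 0.000224). Dao/Svop holds D-amino acid oxidase, an enzyme of the proximal tubule, beside Svop on the opposite strand at a distance of 1227 bases. It stood at 581, 601, 532, 479 and 587 CPM with Y-linked reads and at 374, 384, 451, 397, 418 and 382 CPM without. These ranges did not overlap either, and the log2 difference was 0.47 (SE 0.0823, edgeR adjusted p = 0.00191). Cat and Ddo, at 0.12 (SE 0.0933) and -0.012 (SE 0.0702), were not called.

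Of the 8 members of the import machinery 3 were called higher. Pex10 and Pex2 encode ubiquitin ligase subunits that mark Pex5 for recycling. Pex10 was measured only in the joint locus Pex10/Rer1, so the call of that locus cannot be assigned to Pex10 or to Rer1. Pex10/Rer1 stood at 236, 241, 226, 202 and 244 CPM with Y-linked reads and at 179, 165, 196, 162, 162 and 159 CPM without. Its ranges did not overlap, and the log2 difference was 0.40 (SE 0.0740, edgeR adjusted p = 0.00260). Pex2 stood at 77.5, 85.5, 77.7, 65.8 and 76.2 CPM with Y-linked reads and at 55.6, 59.1, 64.2, 60.0, 59.3 and 54.8 CPM without. The gap between KO PBS 4 and KO PBS 2 was narrow, and the log2 difference was 0.36 (SE 0.0753, edgeR adjusted p = 0.00547). Without the HET PBS 1 library it was 0.29 and not called (edgeR adjusted p = 0.0524), and over 18 alternatives the adjusted p ran from 0.000355 to 0.102. Pex14, the docking protein to which loaded Pex5 binds, stood at 74.0, 59.3, 68.6, 62.0 and 66.0 CPM with Y-linked reads and at 49.4, 46.5, 53.7, 55.5, 55.9 and 49.5 CPM without. All libraries of the former lay above those of the latter, with a log2 difference of 0.37 (SE 0.0780, edgeR adjusted p = 0.00575).

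Among transporters Abcd3 was called higher, at 667, 704, 628, 536 and 605 CPM with Y-linked reads against 539, 394, 496, 472, 482 and 428 CPM without. KO PBS 4 lay just below HET PBS 1, and the log2 difference was 0.38 (SE 0.0797, edgeR adjusted p = 0.00596). Abcd2 was called lower, with a log2 difference of -0.97 (SE 0.301, edgeR adjusted p = 0.0427). The Abcd2 call was lost when any 1 of 8 libraries was left out, each of HET PBS 1 to 3, KO PBS 1 and 3 and KO antimiR-21 1, 2 and 4 (adjusted p 0.0624 to 0.176).

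In beta-oxidation Acox2/Kctd6 was called lower and Scp2 higher. Acox2 is the oxidase of branched and bile acid intermediates, and its promoter match, with 2 mismatches, is printed above. The locus stood at 159.9, 191, 174, 202 and 209.6 CPM with Y-linked reads and at 273, 197, 329, 368, 327 and 313 CPM without. KO PBS 1 was the 1 library without Y-linked reads that lay within the range of the others. The log2 difference was -0.59 (SE 0.125, edgeR adjusted p = 0.00706), and without KO antimiR-21 4 it was -0.56 and not called (adjusted p = 0.0514, with 8.78e-05 to 0.150 over the 18 alternatives). Scp2, which encodes a thiolase of branched chains and a sterol carrier protein, stood at 472, 458, 419, 363 and 494 CPM with Y-linked reads and at 359.6, 322, 404, 397, 372 and 347 CPM without. The ranges overlapped, and the log2 difference was 0.27 (SE 0.0869, edgeR adjusted p = 0.0463). The Scp2 call held with KO PBS 2 or KO PBS 4 left out and was lost with any 1 of the other 9 libraries left out (adjusted p 0.0634 to 0.254), and 41.4% of its 50-base words occur in the pseudogene Scp2-ps2. Acaa1b/Dlec1 had a log2 difference of -0.44 (SE 0.141, edgeR adjusted p = 0.0510), which missed the threshold.

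**Figure D5:**
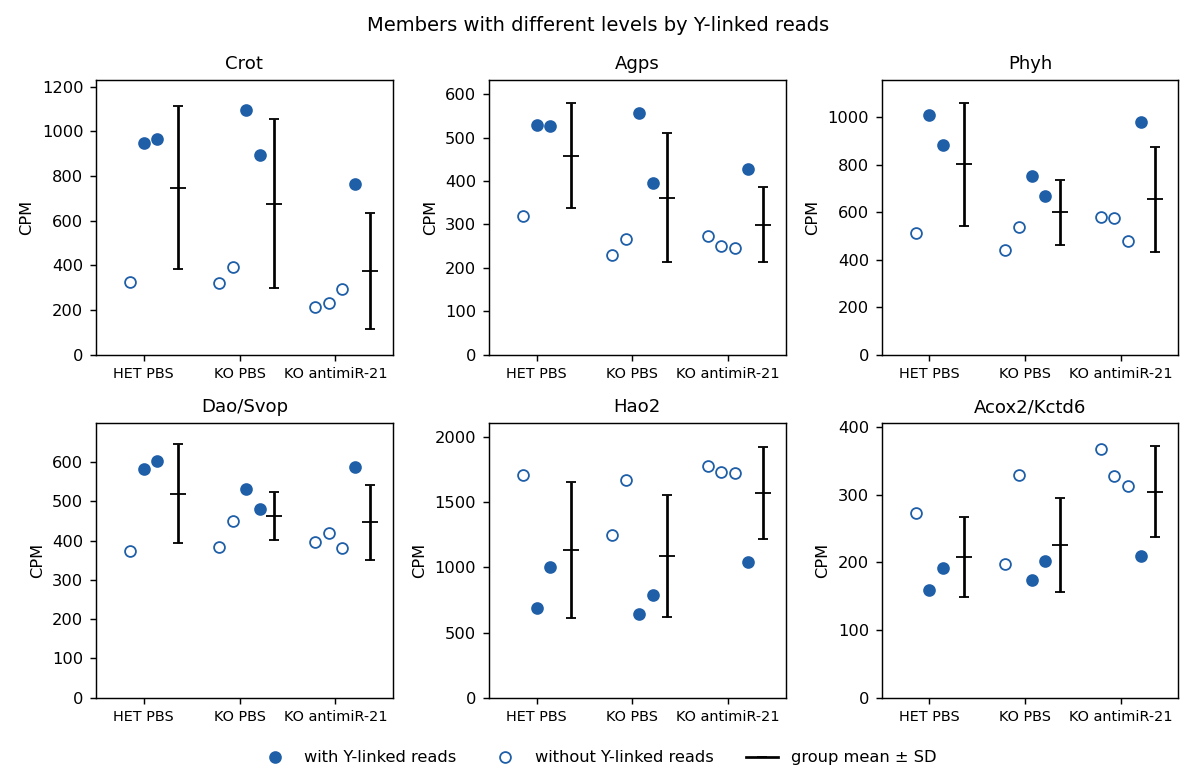
Level in CPM of 6 called loci by group, with filled points for libraries with Y-linked reads, open points for those without, and bars for the mean ± SD of the group. In Crot, Agps, Phyh and Dao/Svop every filled point lies above every open point, in Hao2 every filled point lies below, and in Acox2/Kctd6 KO PBS 1 lies among the filled points.

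The 9 members not yet given by library were called in no comparison. In CPM over the 11 libraries, Pex3 (Adat2/Pex3), which receives membrane proteins, ran from 46.6 to 67.2, Pex5 (Pex5/XLOC_020718), the import receptor of most matrix enzymes, from 112 to 145, and Pex13/Pus10, a docking protein, from 71.6 to 93.2. Pex7, Pex19 and Pex26 ran from 69.6 to 99.2, 121 to 164 and 30.8 to 38.3 CPM. Pxmp4, a membrane protein, ran from 132 to 219, Ehhadh from 535 to 953 and Hsd17b4, the other bifunctional enzyme of beta-oxidation, from 327 to 446 CPM. Ehhadh had means of 842 ± 105 CPM (SD, n = 3), 756 ± 167 CPM (SD, n = 4) and 697 ± 77.9 CPM (SD, n = 4) in HET PBS, KO PBS and KO antimiR-21. Hsd17b4 had means of 399.7 ± 26.1 CPM (SD, n = 3), 352 ± 23.1 CPM (SD, n = 4) and 403 ± 36.7 CPM (SD, n = 4) in the same order. In both, the group ranges overlapped in each comparison.

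Markers of several kidney cell types moved with Y-linked status. Of 4 markers of the S3 segment Slc7a13 and Slc22a7 were called higher and Slc22a13 lower, and Cyp7b1 was not called. Their sum was 759 to 1258 CPM in libraries with Y-linked reads and 206 to 349 CPM in those without, and most of the gap lay in Slc7a13, an amino acid transporter, at 497 to 877 against 24.4 to 63.2 CPM. The other 3 markers summed to 258 to 381 against 174 to 306 CPM and overlapped. Proximal tubule markers as a whole overlapped, at 16500.3 to 20471 against 14438 to 18467 CPM. Podocyte markers (3 of 3 measured) were called lower, with log2 differences of -0.43 to -0.36 (edgeR adjusted p 0.00622 to 0.0150) and a sum of 458 to 598 against 578 to 735 CPM. All 4 markers of the thick ascending limb were below 0, with 1 called (Fli1/Kcnj1, -0.30). Also called lower were 1 of 2 distal convoluted tubule markers measured (Trpm6, -0.62), 1 of 4 of fibroblasts (Dcn, -0.59) and 1 of 4 of liver (Alb, -1.29). Alb stood at only 1.63 to 7.16 CPM, and the liver markers split into 2 above 0 (Apoa1 and Ttr) and 2 below. Of the markers of collecting duct (5), endothelium (4), macrophages (3), tubular injury (3) and fat (3) 0 were called. The part of these cell types in the members' differences was not tested.

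Of 6 regulators of peroxisomal genes 2 were called higher by Y-linked status, Nr1h4, the bile acid receptor, by 0.85 on the log2 scale (edgeR adjusted p = 0.000373) and Rxra, the partner of PPAR-alpha, by 0.32 (0.00901). Cdpf1/Ppara differed by -0.24 (0.170) and was not called. Between groups edgeR called 0 of the 6. In KO PBS all 6 were below HET PBS in mean (median -0.31), and after treatment 5 of 6 were above KO PBS (median 0.20). Cdpf1/Ppara, whose counts hold reads of both genes, stood at 263, 263 and 179 CPM in HET PBS, 174, 189, 156 and 145 CPM in KO PBS and 311, 324, 224 and 248 CPM in KO antimiR-21. All treated libraries lay above all KO PBS libraries, which 2.34% of loci did, and the HET PBS libraries overlapped both. The log2 difference was 0.74 (edgeR adjusted p = 0.312). From HET PBS to KO PBS it was -0.50 (edgeR adjusted p = 0.560). By the clock gene index, the 5 libraries above 3.5 stood at 248 to 324 CPM and the 6 below at 145 to 224 CPM. These did not overlap, and clock phase and treatment cannot be told apart for this locus.

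Whether genotype or treatment acted differently by Y-linked status was tested with interaction terms. By edgeR and by DESeq2 0 members were called in either, where edgeR called 0% of loci, and at an unadjusted p under 0.05 the genotype term took 0 members, against 2.84% of loci higher and 2.06% lower, and the treatment term 2, both higher, against 5.84% of loci. Pex7 stood at 97.2, 84.1, 80.7, 69.6 and 99.2 CPM with Y-linked reads and at 77.5, 73.5, 87.6, 77.8, 69.6 and 72.1 CPM without, in the order given before. Its libraries of highest level were KO antimiR-21 4 and HET PBS 2. The 2 members were Pex7, whose treatment difference was larger with Y-linked reads by 0.54 on the log2 scale (SE 0.179, edgeR adjusted p = 0.322), and Pex10/Rer1 (by 0.35, SE 0.152, 0.384). The treated side of that term rests on KO antimiR-21 4 alone with Y-linked reads, and the HET PBS side of the genotype term on HET PBS 1 alone without them. Each lone library is assumed to vary like the others, so neither term is fully replicated.

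Other peroxisomal genes were taken from a list of 58, of which 42 were tested. By Y-linked status 16 of 42 were called higher and 4 lower, where 11.1% and 6.85% of loci were. Nudt19, a diphosphatase of coenzyme A, stood at 587, 464, 496, 399 and 506 CPM with Y-linked reads and at 159, 92.5, 125, 143, 146 and 92.1 CPM without, a log2 difference of 1.94 (SE 0.145, edgeR adjusted p = 7.60e-06). Hacl1, the lyase that cleaves the product of Phyh in alpha-oxidation, went the opposite way, at 40.1, 58.8, 36.6, 47.8 and 52.0 CPM against 166, 150.2, 192, 211, 203 and 175 CPM, a log2 difference of -1.91 (SE 0.126, edgeR adjusted p = 2.37e-06). Phyh and Hacl1, which act on the same branched chain, were thus called in opposite directions. Ephx2, an epoxide hydrolase, Pecr, an enoyl-CoA reductase, Far1, which makes fatty alcohols for the step of Agps, and Nudt12 were higher by 0.93, 1.28, 0.64 and 0.54. Acnat1, an acyl-CoA amino acid transferase, Acsl1, an acyl-CoA synthetase, and Baat, which conjugates bile acids, were lower, with log2 differences of -1.01, -1.01 and -1.70. In these 9 genes the libraries with and without Y-linked reads did not overlap. Of all 42, 11 were higher and 4 lower without overlap, against 8.14% and 4.14% of loci.

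In the group comparisons 0 of the 42 were called by edgeR. In KO PBS 34 of 42 stood below HET PBS (median -0.16), as did 53.5% of loci. The smallest p there were those of Acad11/Ccrl1 at -0.31 (SE 0.102), Pnpla8 at -0.25 (SE 0.0975) and 4933417A18Rik/Eci3 at -0.51 (SE 0.203). In KO antimiR-21 25 of 42 stood above KO PBS (median 0.072), as did 50.9% of loci. The smallest p there were those of Acad11/Ccrl1 at 0.39 (SE 0.0946), Abcd4 at 0.37 (SE 0.0912) and Gstk1 at 0.37 (SE 0.131). Against HET PBS the smallest p in KO antimiR-21 were those of Idi1 at -0.99 (SE 0.355), Far1 at -0.61 (SE 0.238) and Dnm1l, which divides peroxisomes and mitochondria, at -0.17 (SE 0.0650).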

How the data were processed

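Members and lists were chosen with earlier results of these data known. Per the file headers, the authors deposited estimated counts per gene name and library, not normalized, in steps of 0.5. A deposited series matrix in log2 units, also by the authors, served as an alternative. STAR, HTSeq 0.5.4p5 and mm10 appear in the submitters' processing notes without their roles. For the counting, annotation and strand setting are not given in the sources used.

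Names with identical counts in all 11 libraries and a total of at least 50 were joined into 1 locus. Counts were rounded and tested in R 4.3.3 with edgeR 4.0.16 (filterByExpr over the 3 groups, TMM, glmQLFit robust, glmQLFTest). Y-linked status was Ddx3y above 5 CPM. DESeq2 1.42.0 and limma 3.58.1 served as alternatives. A trial of the test on simulated counts drew each locus independently, so it cannot show how differences shared by many loci affect the calls. Without strand, reads of overlapping genes on opposite strands cannot be told apart. Values in every library are given for members called in any test, the 4 with the smallest p in each group comparison and the 3 highest per kilobase. Of the other peroxisomal genes up to 5 per direction, or the 3 with the smallest p where none was called, are named. Gene positions and exon lengths come from GENCODE vM21 (GRCm38, the same build as mm10). Libraries of 1 group differed by more than sampling noise in all 15 pairs.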

Additional observations from a re-analysis of the deposited data

Results flagged for a closer look

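In 6 of 56 sets of 4 libraries (28 members, KO PBS and KO antimiR-21) the library at one end lay apart from the other 3 by more of the whole range than the 95% critical value of Dixon's test. Chance gives about 1 in 20 such sets. In 4 of the 6 the library was KO antimiR-21 replicate 4, the 1 library of its group with Y-linked reads: Crot at 762 CPM against 214 to 295 CPM, Agps at 429 against 246 to 274, Pex10/Rer1 at 244 against 159 to 162 and Hao2 at 1040 against 1724 to 1776. In the other 2 it was KO PBS replicate 2, with Ddo at 57.8 CPM against 49.0 to 50.4 and Pex6 at 105 against 97.9 to 99.0.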

How the results depend on the processing

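The 12 members called by Y-linked status kept their sign in the 18 alternatives, as did the 4 members with the smallest p in each group comparison in the 21 run there. Of the 28 members 6 changed sign by Y-linked status over its alternatives, none of them called, and with Y-linked status as a term 1, 3 and 6 changed sign in the 3 group comparisons. The members' median turned from 0.084 to -0.029 in KO antimiR-21 against KO PBS without KO antimiR-21 replicate 4. By edgeR, DESeq2 and limma 0 members were called in KO PBS against HET PBS or in KO antimiR-21 against HET PBS under every alternative tried. The counts of loci called by edgeR moved. In KO PBS against HET PBS (0 loci) DESeq2 called 84, a model with Y-linked status 3, and that model without the KO PBS 1 library, chosen after seeing the data, 6. In KO antimiR-21 against KO PBS (0 loci) DESeq2 called 138, 2 of them members. In KO antimiR-21 against HET PBS (1 locus) DESeq2 called 74, limma-voom 0, limma on the authors' log2 matrix 2, the model with Y-linked status 2, and that model without KO PBS 1 called 12. For the interaction terms (0 loci each) DESeq2 called 1 by genotype and 56 by treatment. Leaving out 1 library gave 0 to 2, 0 to 16 and 0 to 4 loci in the 3 group comparisons, and 0 members in each. The 16 came without KO antimiR-21 replicate 3, the 2 without KO PBS replicate 2 and the 4 without KO PBS replicate 1. For Y-linked status leaving out 1 library gave 1218 to 3736 loci against 2576, and 9 to 16 members against 12. The lowest counts came without HET PBS replicate 1 (1218) and KO antimiR-21 replicate 4 (1547), and KO PBS replicate 3 gave 1617.

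The labels do not say that replicate numbers pair libraries. Of 10 same-numbered pairs 6 correlated above 0.1, over a range of -0.44 to 0.63. In these 6 both libraries had the same Y-linked status, and in the others they did not. The correlations therefore cannot show whether the numbers pair libraries. With the replicate block the counts were 2, 26 and 4 loci in the 3 group comparisons, with 1 member (Pxmp2, adjusted p = 0.0461) in KO antimiR-21 against KO PBS, and 553 loci and 5 members by Y-linked status. Crot, Agps, Phyh, Hao2 and Pex14 were called by Y-linked status in 18 of 18 alternatives. Depth limits Abcd2 (10 to 50 counts in a library).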
